A study of Mus musculus with 14 samples.

Results

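The genes described here are 10 genes of the Nrf2 antioxidant and glutathione programme in mouse muscle precursor cells: Nfe2l2, Nqo1, Hmox1, Gclc, Gclm, Txnrd1, Srxn1, Gsta4, Gstm1 and Gstm2. They were chosen by symbol, as the rows of the expression table whose Ensembl identifier carries these symbols in GENCODE release M21. The choice was made with earlier results of these data known. All 10 were found among the 49585 genes of the table, and all 10 passed the filter on low values, which kept 12432 genes. RNA sequencing had been done on C2C12 cells, a line of mouse myoblasts, the dividing precursors of muscle fibres. All groups carry a short hairpin RNA, which is either a control hairpin (shControl) or a hairpin against FoxM1 (shFoxM1), a forkhead transcription factor of dividing cells. Quiescent cells had been detached and kept in suspension in methylcellulose medium with serum to stop their division. The state of the other cells is given as activated, and the means of activation is not stated.

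The 4 groups are quiescent shControl cells with 3 libraries, quiescent shFoxM1 cells with 4, activated shControl cells with 3 and activated shFoxM1 cells with 4. The sources used here do not give the hairpin sequences, the number of hairpins or clones, or whether the libraries of a group come from separate cultures. Every p-value therefore measures only how these libraries vary, and that variation may be technical. The values are FPKM, fragment counts scaled for transcript length and library size, so levels can be set against each other between genes. Group levels are means ± SD, with n = 3 for shControl and n = 4 for shFoxM1 groups. Differences are log2 fold changes ± SE on the log2(FPKM + 1) scale. A gene is said to have risen or fallen only where limma's p, adjusted by the Benjamini-Hochberg method over all 12432 genes, was below 0.05.

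Nrf2, the protein encoded by Nfe2l2, is a transcription factor that is made all the time and normally destroyed as fast, because the adaptor Keap1 hands it to a ubiquitin ligase. Electrophiles and oxidants modify Keap1, Nrf2 then builds up, pairs with small Maf proteins and binds antioxidant response elements, at which the repressor Bach1 competes. The target genes make glutathione, reduce thioredoxin and peroxiredoxins, degrade haem, and detoxify quinones and lipid aldehydes. Because the control lies mainly in protein stability, the Nfe2l2 transcript need not follow the activity of the protein, which RNA sequencing does not measure.

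Estimated depth was 2.72e+07 to 3.62e+07 reads per library, and 11281 to 12046 genes reached 1 FPKM. Foxm1 itself was at 35.8 ± 1.13 FPKM in activated shControl and 17.0 ± 7.23 FPKM in activated shFoxM1 cells. Its libraries did not overlap there, and 2.73% of all genes tested lay apart as lower in the same way. In quiescent cells Foxm1 was at 15.6 ± 7.34 against 10.0 ± 3.93 FPKM, and the libraries overlapped. Neither knockdown difference passed (log2 -1.11, adjusted p = 0.624, and -0.56, adjusted p = 1). Of the defining myoblast genes, Myod1 was at 4.04 to 39.71 FPKM and Des at 67.02 to 231.57 FPKM, while Pax7 did not exceed 0.08 FPKM. On activation, 11.7% of all genes tested rose and 16.5% fell in shControl cells, and 18.3% rose and 12.3% fell in shFoxM1 cells. Of the 6 myoblast markers tested, activation lowered 3 with the control hairpin and 4 with shFoxM1. Myod1 fell by 1.38 and 1.86 on the log2 scale (adjusted p = 0.00843 and 0.000522). The 7 myoblast markers summed to 251.2 to 421.8 FPKM in quiescent and 121.1 to 302.1 FPKM in activated libraries. Of the 5 adipocyte markers 2 were tested: Pparg rose with both hairpins (1.20 and 0.98, adjusted p = 0.00195 and 0.00214) and Lpl fell (-1.86 and -2.46, adjusted p = 0.000672 and 1.98e-05). The adipocyte markers summed to 31.87 to 67.75 FPKM in quiescent and 17.57 to 26.05 FPKM in activated libraries. The macrophage gene Adgre1 and the epithelial gene Epcam were listed at 0 in every library. Of the 6 epithelial markers only Krt14 reached 1 FPKM, at 1.14 to 15.84 FPKM, and it passed in no comparison. The epithelial markers summed to 1.26 to 12.41 FPKM in quiescent and 2.35 to 16.39 FPKM in activated libraries. Of the 5 macrophage markers only Cd68 reached 1 FPKM; it rose on activation by 2.03 and 1.28 on the log2 scale (adjusted p = 0.00423 and 0.0198), while Ptprc did not exceed 0.01 FPKM. The macrophage markers summed to 1.47 to 3.85 FPKM in quiescent and 2.08 to 13.95 FPKM in activated libraries. Of the 4 fibroblast markers, the 3 tested fell with both hairpins, and the summed level of all 4 was 90.98 to 195.1 FPKM in quiescent and 16.88 to 43.13 FPKM in activated libraries. None of the 4 endothelial markers reached 1 FPKM in enough libraries to be tested. All 9 markers of differentiating muscle were lower in activated cells with either hairpin, and their summed level was 225.4 to 1418 FPKM in quiescent shControl, 80 to 736.5 in quiescent shFoxM1, 23.82 to 58.7 in activated shControl and 5.11 to 73.47 in activated shFoxM1 libraries. The part of these differences in the results on activation was not tested.

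Of the 7 members with a promoter entry in the RefSeq table, 4 hold an antioxidant response element core in their window, and the stretches around the matches are shown because this is the sequence through which Nrf2 is known to act. Each window covers 300 bases around a gene start on GRCm38.p6, and a member can have several. Both strands were searched for TGACNNNGC, the core of the antioxidant response element, and for TGANTCAGC, the form bound by Nrf2 with small Maf proteins. A sequence can match both. Capitals mark the match, and every stretch is written 5′ to 3′ on the strand of the gene.
Gclm: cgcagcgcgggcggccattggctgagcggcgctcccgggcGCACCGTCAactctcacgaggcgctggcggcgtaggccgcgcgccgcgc
Nfe2l2: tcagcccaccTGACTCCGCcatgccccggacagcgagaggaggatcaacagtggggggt
Srxn1: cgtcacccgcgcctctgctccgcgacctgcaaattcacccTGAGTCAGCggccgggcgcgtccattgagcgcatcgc
Txnrd1: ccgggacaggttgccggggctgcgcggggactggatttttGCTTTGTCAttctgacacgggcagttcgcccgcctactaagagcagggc
The Gclm stretch is chr3:122245383-122245471 on the plus strand, and its match reads TGACNNNGC on the opposite strand, 134 to 126 bases before the start. The Nfe2l2 stretch is chr2:75704855-75704913 on the minus strand, with its TGACNNNGC match 240 to 232 bases before the start, and it overlaps an exon of the noncoding gene E030042O20Rik on the plus strand. The Srxn1 stretch is chr2:152105439-152105515 on the plus strand, with its TGANTCAGC match 45 to 37 bases before the start. The Srxn1 window also holds a TGACNNNGC match on the opposite strand within the transcript, which is not shown. The Txnrd1 stretch is chr10:82859074-82859162 on the plus strand, with the match on the opposite strand. It lies 92 to 84 bases before an alternative start within the span of the gene, in the only 1 of the 3 Txnrd1 windows with a match. The window at the first base of the gene holds none. These letters are common: among all 32851 windows, 12.4% hold TGACNNNGC, 1.19% hold TGANTCAGC and 13% hold either. These shares are per window, whereas the 4 of 7 members are counted per gene, some with several windows. The windows of Nqo1, Gstm1 and Gstm2 hold neither, which says only that the letters are not in those windows. Hmox1, Gclc and Gsta4 have no sequence shown.

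Activation raised 5 of the 10 genes in shControl cells and 5 of the 10 in shFoxM1 cells, and lowered none in either. Nqo1, Gclm, Txnrd1 and Srxn1 rose with both hairpins, Gsta4 was called with the control hairpin, and Gclc with the FoxM1 hairpin. Across all genes tested, 28.3% were called in shControl cells (11.7% higher, 16.5% lower) and 30.7% in shFoxM1 cells (18.3% higher, 12.3% lower). The activated libraries lay entirely above the quiescent ones for Nqo1, Gclm, Srxn1 and Gsta4 in shControl cells, 4 of the 10 beside 17.5% of all genes tested. In shFoxM1 cells they did so for Nqo1, Gclc, Gclm, Txnrd1 and Srxn1, 5 of the 10 beside 17.3%. The median log2 fold change of the 10 genes was 0.54 in shControl and 0.54 in shFoxM1 cells, beside medians over all genes tested of -0.11 and 0.03. The 10 genes were chosen with earlier results of these data known, so their comparison with all genes is not independent of that choice. The direction of calls over all genes depended on scaling: 41.5% of the calls in shControl cells were higher with FPKM as deposited, 57.4% with median-of-ratios scaling and 12.3% with every library set to the same sum over protein-coding genes, and in shFoxM1 cells these shares were 59.8, 55.4 and 23.6%. The count of the 10 genes called in shControl cells was 6 and 2 under these scalings. It was 3 without quiescent shControl replicate 2, without quiescent shControl replicate 3 or without activated shControl replicate 2. With every library set to the same protein-coding sum, Gstm1 and Gstm2 were called lower in shFoxM1 cells.

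**Figure D1:**
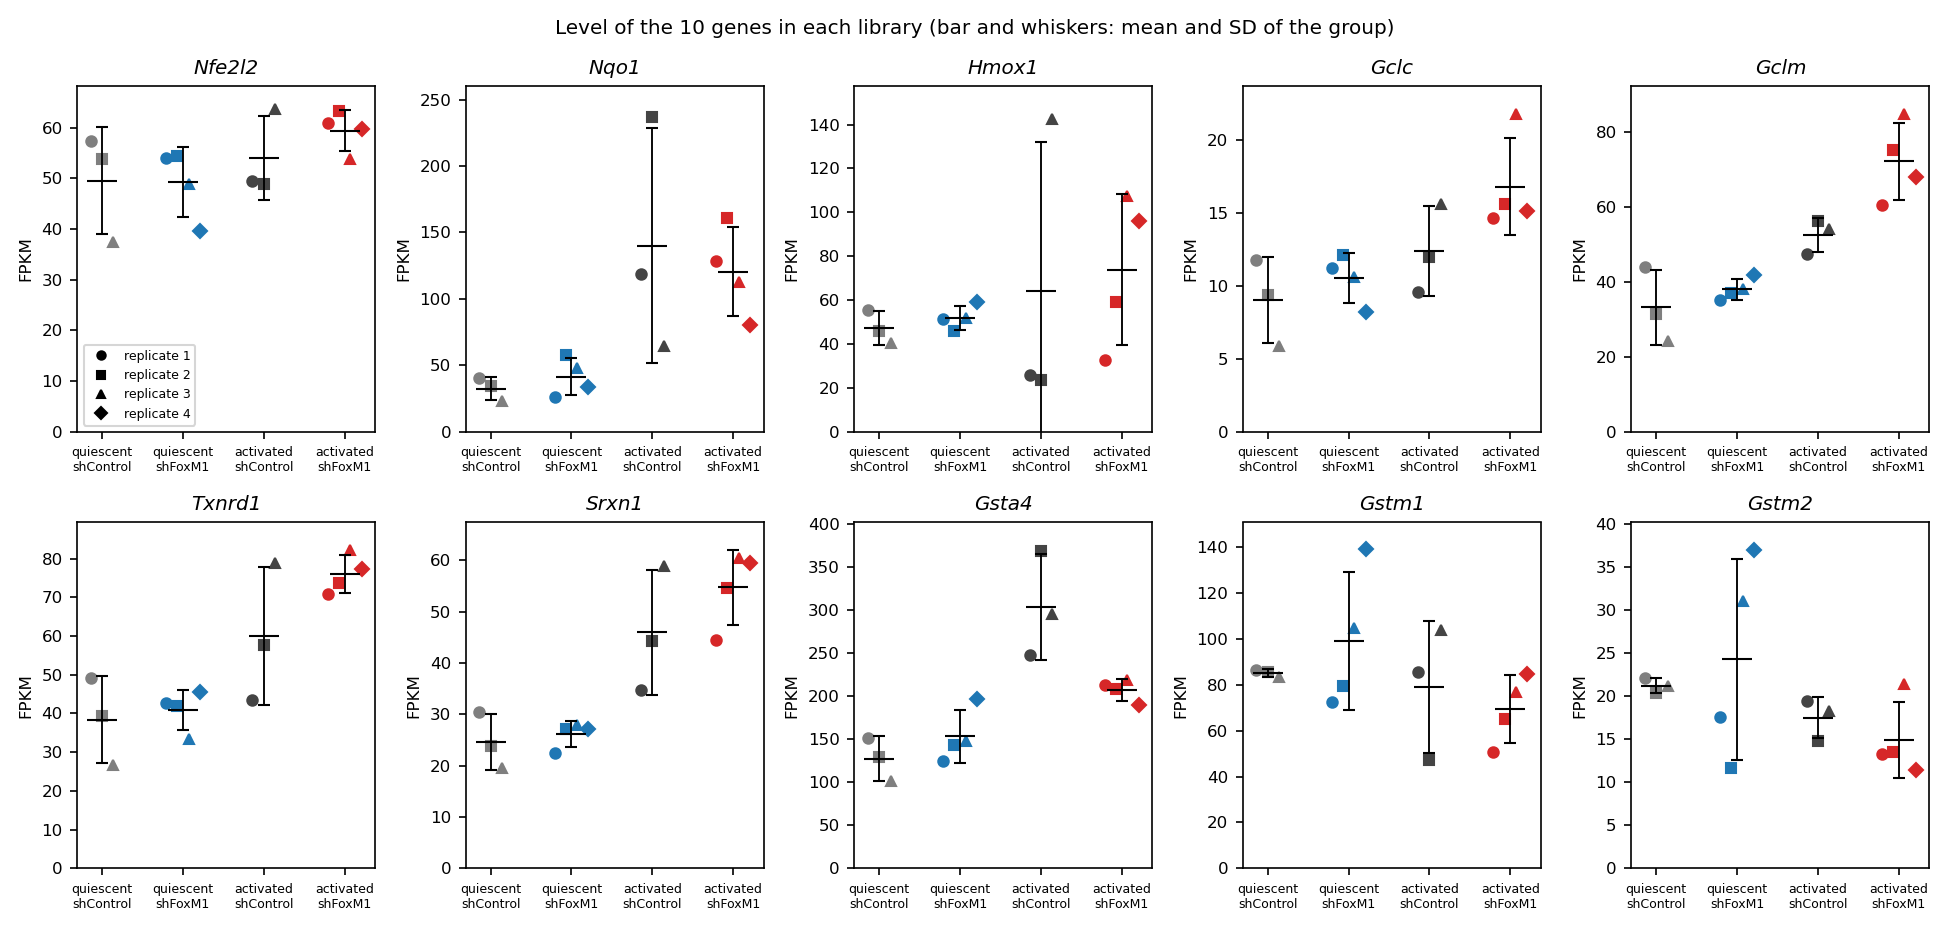
FPKM of the 10 genes (vertical axes, linear, from 0) in the 14 libraries of the 4 groups; symbols mark the replicate number, and the bar and whiskers are the group mean and SD, with the lower whisker of Hmox1 in activated shControl cells cut at 0. Nqo1 lies at 64.8 FPKM or more in all activated libraries and at 57.6 FPKM or less in all quiescent ones, while Hmox1 in activated libraries spreads on both sides of its quiescent levels.

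Nfe2l2, which encodes Nrf2 (ENSMUSG00000015839.6, GRCm38 chromosome 2, 75675513 to 75704641, minus strand), had the smallest spread within groups of the 10 genes. In quiescent libraries it was at 57.4, 53.7 and 37.5 FPKM with the control hairpin and at 53.9, 54.4, 48.9 and 39.6 FPKM with shFoxM1. In activated libraries it was at 49.4, 49.0 and 63.6 FPKM with the control hairpin and at 61.0, 63.3, 53.7 and 59.7 FPKM with shFoxM1. The libraries of all 4 groups overlapped, apart from a single quiescent library in each arm below 40 FPKM. The log2 fold changes on activation were 0.13 ± 0.18 in shControl (adjusted p = 0.593) and 0.28 ± 0.15 in shFoxM1 cells (adjusted p = 0.196), and neither passed. Both values turned negative when libraries were set to the same protein-coding sum (-0.22 and -0.03), although relative to the median of all genes they stayed at 0.19 and 0.22.

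Nqo1 (ENSMUSG00000003849.8, chromosome 8, 107388225 to 107403206, minus strand), whose product reduces quinones to hydroquinones and which is widely used as a readout of Nrf2, had the largest rise of the 10 genes with either hairpin. Its quiescent levels were 40.1, 34.8 and 22.8 FPKM with the control hairpin and 26.5, 57.6, 48.3 and 33.7 FPKM with shFoxM1. Its activated levels were 118.7, 237.1 and 64.8 FPKM with the control hairpin and 128.2, 161.2, 112.4 and 80.2 FPKM with shFoxM1. Every activated library lay above every quiescent library, and the activated shControl libraries differed among themselves more than those of any other group. The log2 fold change was 1.91 ± 0.40 in shControl cells (adjusted p = 0.00349) and 1.53 ± 0.35 in shFoxM1 cells (adjusted p = 0.00454), which are percentiles 99.6 and 99.3 among all genes tested. Nqo1 was called under all 21 alternatives in both comparisons, with adjusted p up to 0.0186 and 0.0194.

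The pair that makes glutathione, Gclc and Gclm, encode the catalytic and the modifier subunit of glutamate-cysteine ligase, the rate-limiting enzyme of glutathione synthesis. Gclm (ENSMUSG00000028124.15, chromosome 3, 122245557 to 122270732, plus strand) rose with both hairpins. It went from 44.2, 31.4 and 24.3 FPKM in quiescent to 47.5, 56.2 and 54.2 FPKM in activated shControl libraries, and from 35.2, 37.2, 38.1 and 41.9 to 60.7, 75.3, 84.9 and 68.1 FPKM in shFoxM1 libraries. Activated libraries lay above quiescent ones in each arm, narrowly so in shControl cells. Its log2 fold change was 0.68 ± 0.19 in shControl cells (adjusted p = 0.0157) and 0.90 ± 0.16 in shFoxM1 cells (adjusted p = 0.00125). The call in shControl cells was lost without quiescent shControl replicate 2 (adjusted p = 0.0569) or 3 (0.0706), without activated shControl replicate 2 (0.0551) and with the protein-coding sum (0.183). Exons of Gclm overlap the pseudogene Gm6061 on the same strand and the noncoding gene Gm17494 on the other, so a part of its reads could belong to these.

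Gclc (ENSMUSG00000032350.9, chromosome 9, 77754535 to 77794485, plus strand) had the lowest mean of the 10 genes in each group except activated shFoxM1 cells, where Gstm2 was lower. It was at 11.8, 9.4 and 5.9 FPKM in quiescent and at 9.6, 12 and 15.7 FPKM in activated shControl libraries, which overlap. With shFoxM1 it was at 11.2, 12.2, 10.6 and 8.2 FPKM in quiescent and at 14.7, 15.7, 21.8 and 15.1 FPKM in activated libraries, which do not. The log2 fold change was 0.44 ± 0.24 in shControl (adjusted p = 0.175) and 0.62 ± 0.21 in shFoxM1 cells (adjusted p = 0.0336). The call in shFoxM1 cells was lost under 7 of 21 alternatives, with adjusted p up to 0.281, and the difference between the 2 hairpins in the response to activation did not pass (log2 0.18 ± 0.31, adjusted p = 0.993).

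Txnrd1 and Srxn1 belong to the arm that repairs oxidised thiols. Txnrd1 (ENSMUSG00000020250.9, chromosome 10, 82833951 to 82897712, plus strand), the cytosolic reductase of thioredoxin, was at 49.3, 39.3 and 26.7 FPKM in quiescent and at 43.4, 57.7 and 78.9 FPKM in activated shControl libraries. With shFoxM1 it was at 42.7, 41.8, 33.5 and 45.5 FPKM in quiescent and at 70.9, 73.6, 82.3 and 77.4 FPKM in activated libraries. The shFoxM1 groups were far apart, whereas the shControl groups overlapped at activated replicate 1. In shControl cells the log2 fold change was 0.63 ± 0.22 (adjusted p = 0.0479), a call that was lost under 15 of 21 alternatives with adjusted p up to 0.339. In shFoxM1 cells it was 0.89 ± 0.19 (adjusted p = 0.00379) and was called under all 21.

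Srxn1 (ENSMUSG00000032802.8, chromosome 2, 152105516 to 152111376, plus strand), which encodes sulfiredoxin, the enzyme that reactivates overoxidised peroxiredoxins, went from 30.4, 23.9 and 19.6 to 34.7, 44.4 and 58.8 FPKM in shControl libraries. With shFoxM1 it went from 22.5, 27.1, 27.9 and 27.1 to 44.6, 54.5, 60.4 and 59.5 FPKM. No activated library of either arm reached down to the quiescent libraries. The log2 fold change was 0.86 ± 0.20 in shControl cells (adjusted p = 0.00626) and 1.03 ± 0.17 in shFoxM1 cells (adjusted p = 0.000798), and the call in shControl cells was lost only with the protein-coding sum (adjusted p = 0.0733).

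Hmox1 (ENSMUSG00000005413.8, chromosome 8, 75093621 to 75100589, plus strand), which encodes the inducible haem oxygenase, did not pass in any comparison and had the largest spread within groups, a pooled SD of 0.78 on the log2 scale beside 0.21 for Nfe2l2. Quiescent libraries were close together, at 55.4, 46.1 and 40.3 FPKM with the control hairpin and 51.4, 45.8, 51.8 and 59.1 FPKM with shFoxM1. Activated libraries were at 26.1, 23.6 and 142.7 FPKM with the control hairpin and at 32.6, 59.3, 107.5 and 96.2 FPKM with shFoxM1. Thus 2 activated shControl libraries and 1 activated shFoxM1 library lay below every quiescent library, and 1 activated shControl and 3 activated shFoxM1 libraries above every quiescent one. The log2 fold change was -0.06 ± 0.53 in shControl cells (adjusted p = 0.937) and 0.36 ± 0.46 in shFoxM1 cells (adjusted p = 0.582). In shControl cells the value turned to 0.09 with median-of-ratios scaling and ranged from -0.89 to 0.38 as single libraries were left out.

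The 3 glutathione transferases among the members did not move together. Gsta4 (ENSMUSG00000032348.6, chromosome 9, 78182774 to 78209349, plus strand), which conjugates the lipid peroxidation product 4-hydroxynonenal, had the highest mean of the 10 genes in each group. It was at 151.7, 129.7 and 100.7 FPKM in quiescent and at 247.1, 368.7 and 294.6 FPKM in activated shControl libraries. With shFoxM1 it was at 124.1, 143.4, 147.5 and 196.9 FPKM in quiescent and at 212.8, 207.9, 218.0 and 189.5 FPKM in activated libraries. The shControl groups were far apart, and the shFoxM1 groups overlapped through the highest quiescent library. In shControl cells the log2 fold change was 1.25 ± 0.19 (adjusted p = 0.000687), called under all 21 alternatives. In shFoxM1 cells it was 0.45 ± 0.17 (adjusted p = 0.0538), and it passed under 5 alternatives, with the lowest adjusted p of 0.0109 without quiescent shFoxM1 replicate 4.

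Gstm1 (ENSMUSG00000058135.12, chromosome 3, 108012255 to 108017973, minus strand) and Gstm2 (ENSMUSG00000040562.12, chromosome 3, 107981702 to 107986453, minus strand) encode cytosolic transferases of the mu class and are neighbouring, similar genes, so how reads shared between them were split is uncertain. Gstm1 was at 86.6, 85.8 and 83.3 FPKM in quiescent and at 85.8, 47.3 and 104.1 FPKM in activated shControl libraries. With shFoxM1 it was at 72.4, 79.6, 104.6 and 139.0 FPKM in quiescent and at 50.7, 65.3, 76.8 and 84.8 FPKM in activated libraries. Both pairs of groups overlapped, and neither fold change passed (log2 -0.18 ± 0.28, adjusted p = 0.658, and -0.48 ± 0.24, adjusted p = 0.148). Gstm2 was at 22.1, 20.3 and 21.2 FPKM in quiescent and at 19.4, 14.8 and 18.2 FPKM in activated shControl libraries. With shFoxM1 it was at 17.5, 11.6, 31.0 and 36.9 FPKM in quiescent and at 13.3, 13.5, 21.4 and 11.4 FPKM in activated libraries. The activated shControl libraries all lay below the quiescent ones, as they did for 26.6% of all genes tested, and the shFoxM1 groups overlapped. The log2 fold changes of Gstm2 were -0.27 ± 0.33 (adjusted p = 0.551) and -0.57 ± 0.28 (adjusted p = 0.139). With the protein-coding sum both genes passed as lower in shFoxM1 cells, Gstm1 at -0.79 (adjusted p = 0.0232) and Gstm2 at -0.87 (adjusted p = 0.0258). That scaling raises the values of every quiescent library and lowers those of every activated one, and so lowers the fold changes on activation. Relative to the median of all genes Gstm1 was then at -0.54 and Gstm2 at -0.62.

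Exact two-sided permutation tests on the libraries were run for each gene in each of the 4 comparisons between groups, 40 tests in all. With 3 against 3 libraries the smallest p they can give is 0.1, so shControl cells cannot reach 0.05. In shFoxM1 cells the exact p was 0.0286, the smallest possible with 4 against 4, for Nqo1, Gclc, Gclm, Txnrd1 and Srxn1, and 0.0571 for Gsta4. After Benjamini-Hochberg adjustment over the 40 exact tests none passed, the lowest value being 0.19. For any to pass, most of the 40 tests would have had to reach their smallest possible p together. The adjusted result therefore cannot decide on the limma calls.

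**Figure D2:**
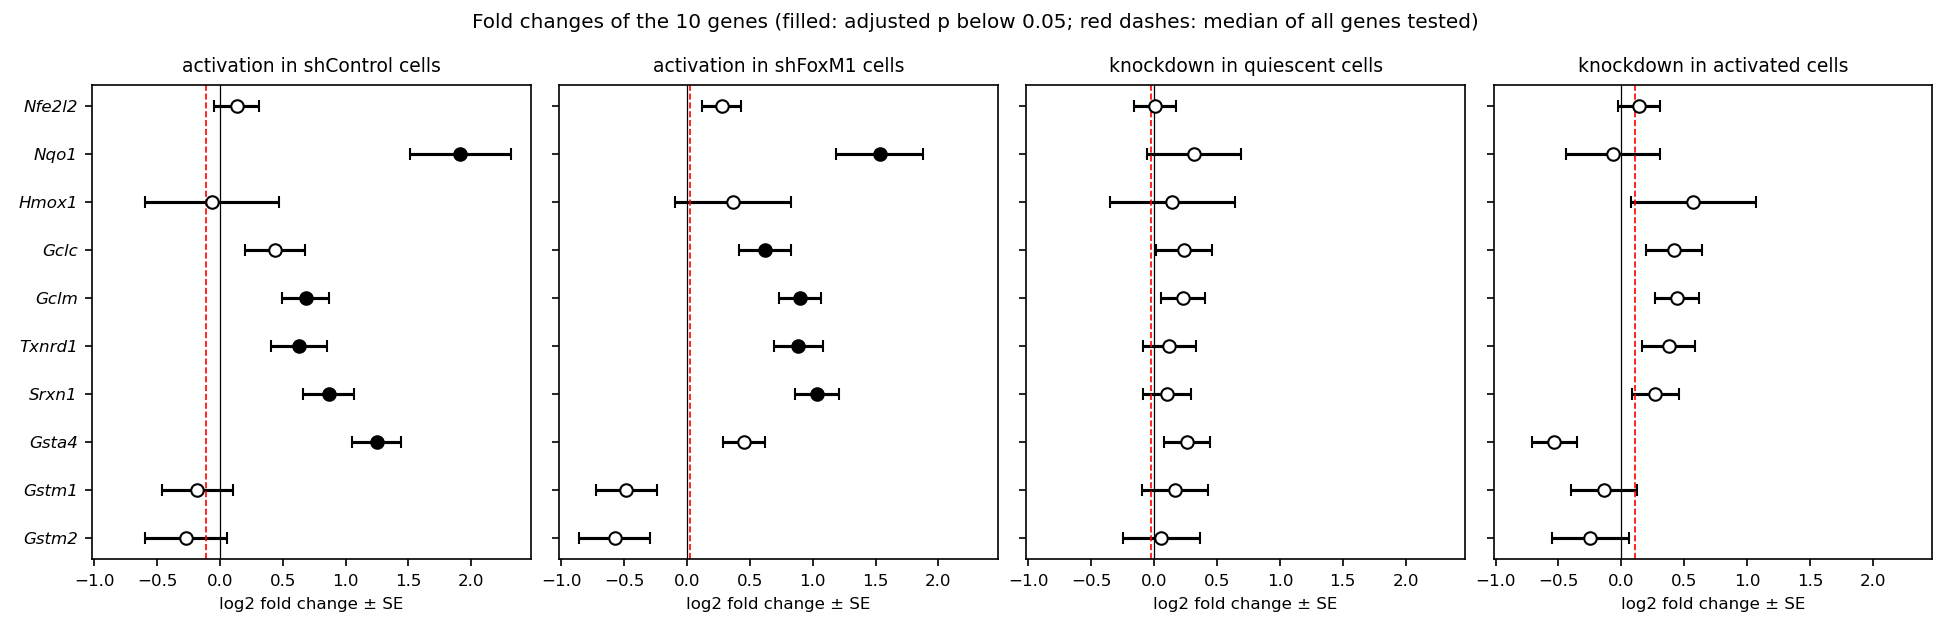
Log2 fold change ± SE of the 10 genes (horizontal axes, on the log2(FPKM + 1) scale) for activation in each hairpin arm and for shFoxM1 against shControl in each state; filled points passed at adjusted p below 0.05, and red dashes mark the median of all genes tested. Filled points lie only in the 2 panels on activation, 5 in each, and in the panel on knockdown in activated cells Gsta4 at -0.53 and Gclm at 0.44 lie on opposite sides of 0.

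The knockdown of FoxM1 changed none of the 10 genes past the threshold in either state. The share of all genes tested that was called is 0% in quiescent and 0% in activated cells with limma, while 2.12 and 7.87% had an unadjusted p below 0.05. In quiescent cells all 10 fold changes were above 0, as were 5328 of all 12432, with a median of 0.15 beside -0.02 for all genes tested. They ranged from 0.00 ± 0.17 for Nfe2l2, with a 95% interval from -0.35 to 0.36, to 0.32 ± 0.37 for Nqo1, with an interval from -0.48 to 1.11. No member kept its groups apart there, while 0.668% of all genes did so as higher and 2.45% as lower. Every member but Gstm2 was lowest in replicate 3 among the quiescent shControl libraries, so the 10 signs above 0 are not separate results. That library also enters the activation results in shControl cells. In activated cells the median was 0.21 beside 0.11 for all genes tested, and 6 of the 10 fold changes were above 0, as were 8491 of all 12432.

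Gclm and Gsta4 kept the hairpins apart in activated cells, in opposite directions. For Gclm all 4 activated shFoxM1 libraries, at 60.7 FPKM or more, lay above all 3 shControl libraries, at 56.2 FPKM or less, as they did for 6.68% of all genes tested. The log2 difference was 0.44 ± 0.18 (p = 0.0241, adjusted p = 0.629, exact permutation p = 0.0571). For Gsta4 all 4 shFoxM1 libraries, at 218.0 FPKM or less, lay below all 3 shControl libraries, at 247.1 FPKM or more, as they did for 2.73% of all genes. The log2 difference was -0.53 ± 0.18 (p = 0.0106, adjusted p = 0.624, exact permutation p = 0.0286, the smallest possible with 3 against 4). Neither passed over all genes.

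The other members overlapped between hairpins in activated cells. Gclc (log2 0.42 ± 0.22), Txnrd1 (0.38 ± 0.21), Srxn1 (0.27 ± 0.19) and Nfe2l2 (0.14 ± 0.17) had values above 0 that did not pass, with adjusted p of 0.646, 0.652, 0.695 and 0.813. Nqo1 was at -0.07 ± 0.37, with a 95% interval from -0.86 to 0.73. Hmox1 was at 0.57 ± 0.50, and its value was 1.398 without activated shControl replicate 3.

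The difference between the activation responses of the 2 hairpins was tested directly and passed for none of the 10 genes, nor for any of the 12432 genes with limma (0% called), while 3.48% had an unadjusted p below 0.05. The largest difference among the members was that of Gsta4, with a log2 difference of -0.79 ± 0.26 (adjusted p = 0.993), with a 95% interval from -1.34 to -0.24. The other 9 members had differences between -0.38 for Nqo1 and 0.43 for Hmox1, with an adjusted p of 0.993 for each. That Gsta4 was called in shControl cells alone and Gclc in shFoxM1 cells alone is thus not shown to be a difference between the hairpins.

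**Figure D3:**
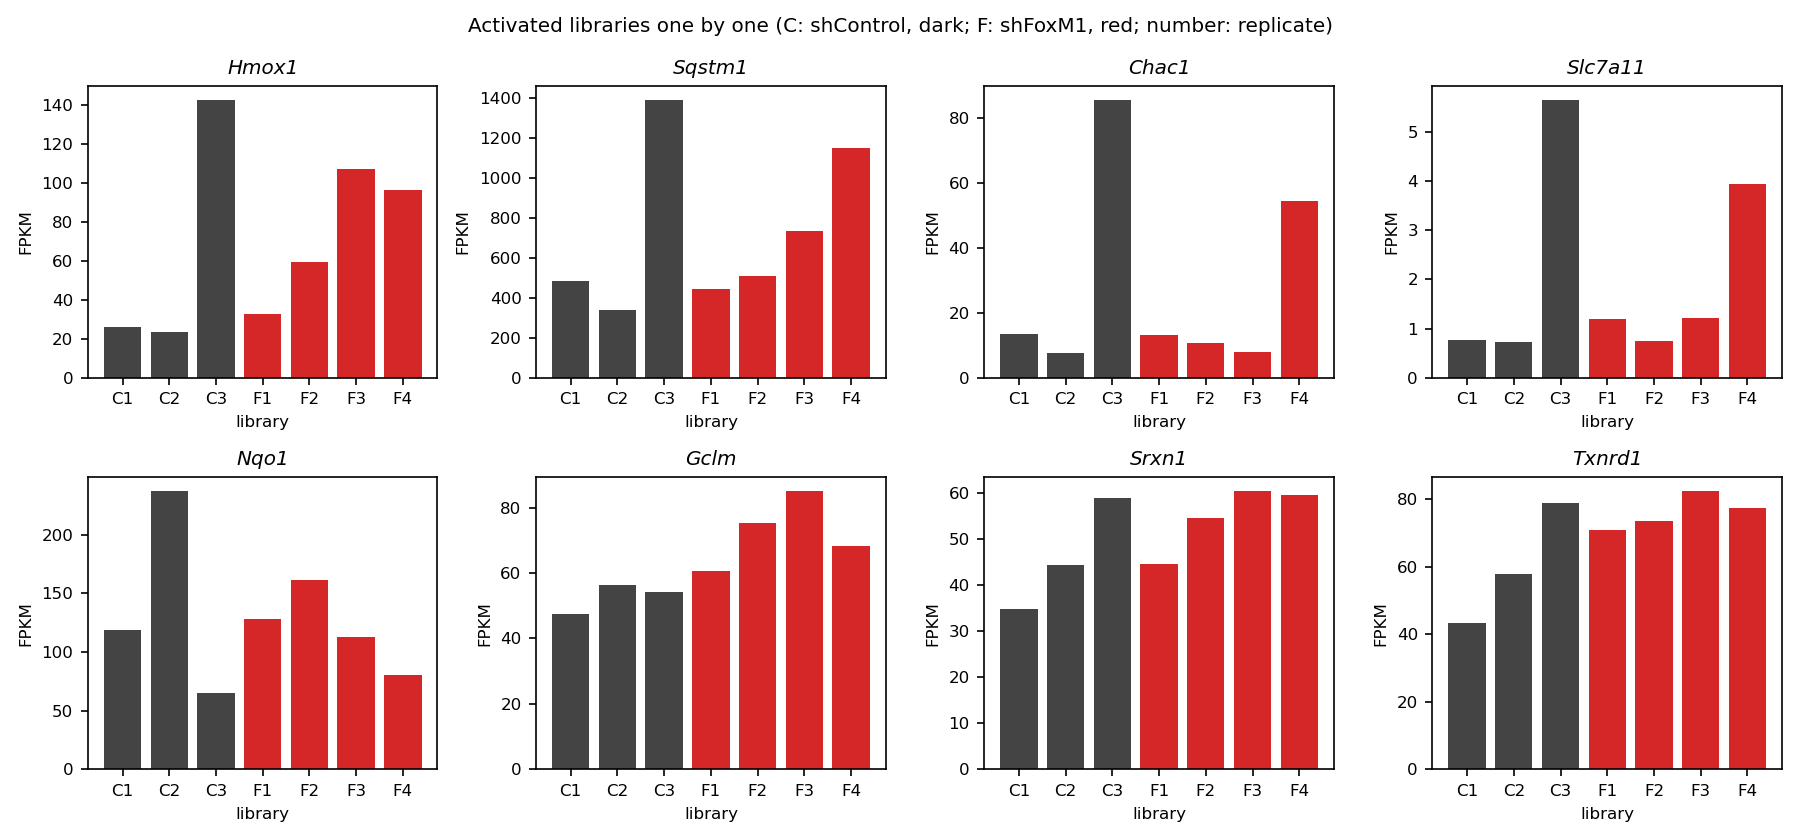
FPKM of 8 genes in each of the 7 activated libraries (C, shControl, dark; F, shFoxM1, red; the number is the replicate; bars start at 0). Hmox1, Sqstm1, Chac1 and Slc7a11 are highest in shControl replicate 3, where Nqo1 is lowest, and shFoxM1 replicate 4 also has high Sqstm1, Chac1 and Slc7a11 beside the lowest Nqo1 of its group.

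Activated shControl replicate 3 and activated shFoxM1 replicate 4 stood apart from the other activated libraries in several genes around glutathione, and Nqo1 and Hmox1 differed there in opposite directions. The likeness of these 2 libraries was not limited to such genes. Over all 12432 genes tested, their deviations from the group means correlated at 0.666, the highest value between libraries of different groups. Of the genes named here, Chac1, Cth and Sqstm1 were picked after their values were seen. Chac1, an enzyme that degrades glutathione, was at 85.5 FPKM in shControl replicate 3 and 54.5 FPKM in shFoxM1 replicate 4, against 7.55 to 13.4 FPKM in the other 5 activated libraries. Slc7a11, the cystine importer that feeds glutathione synthesis, was at 5.66 and 3.95 FPKM in these libraries and at 0.72 to 1.22 FPKM in the others. Cth, which makes cysteine from cystathionine, was at 37.6 and 18.7 FPKM against 3.60 to 6.49 FPKM. Sqstm1, whose product p62 binds Keap1, was at 1389 and 1150 FPKM against 335.8 to 733.7 FPKM in the others. Genes of the mitochondrial genome made up 5.85 and 6.19% of the protein-coding FPKM sum in these libraries and 7.73 to 10.5% in the other 5, and their part in the pattern was not tested.

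In the same pair of libraries Nqo1 was the lowest of its group, at 64.8 and 80.2 FPKM. Hmox1 was the highest of its group in shControl replicate 3, at 142.7 FPKM, and the second highest in shFoxM1 replicate 4, at 96.2 FPKM. Leaving both libraries out, an alternative chosen after seeing the data, gave 4 members called in shControl cells, with Txnrd1 lost (adjusted p = 0.183), and 5 in shFoxM1 cells. Nqo1 then rose by 2.37 and 1.71 on the log2 scale, and Hmox1 had a fold change of -0.89 in shControl cells (adjusted p = 0.0671) and 0.19 in shFoxM1 cells (adjusted p = 0.642).

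The members resembled each other to different degrees over the 14 libraries. Likeness was measured as the root mean square difference of log2(FPKM + 1) after centring each gene on its mean, so that 0 would be the same pattern. Gclm, Srxn1 and Txnrd1 formed the closest trio, with differences of 0.18 for each of the 3 pairs, and Gclc lay 0.22 from Txnrd1. Nqo1 and Hmox1 were the least alike, at 1.30. Among all genes tested, those close to Nfe2l2 included Cast at 0.075, Srsf6 at 0.078 and Pigl at 0.087, in a gene whose own root mean square deviation is 0.217. Those closest to Nqo1, with its own deviation of 0.984, were Clec4d at 0.322, 2200002D01Rik at 0.351, Apln at 0.418 and Gmnn at 0.422. Every library enters these values, and the genes nearest to a gene that varies little are themselves genes that vary little.

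**Figure D4:**
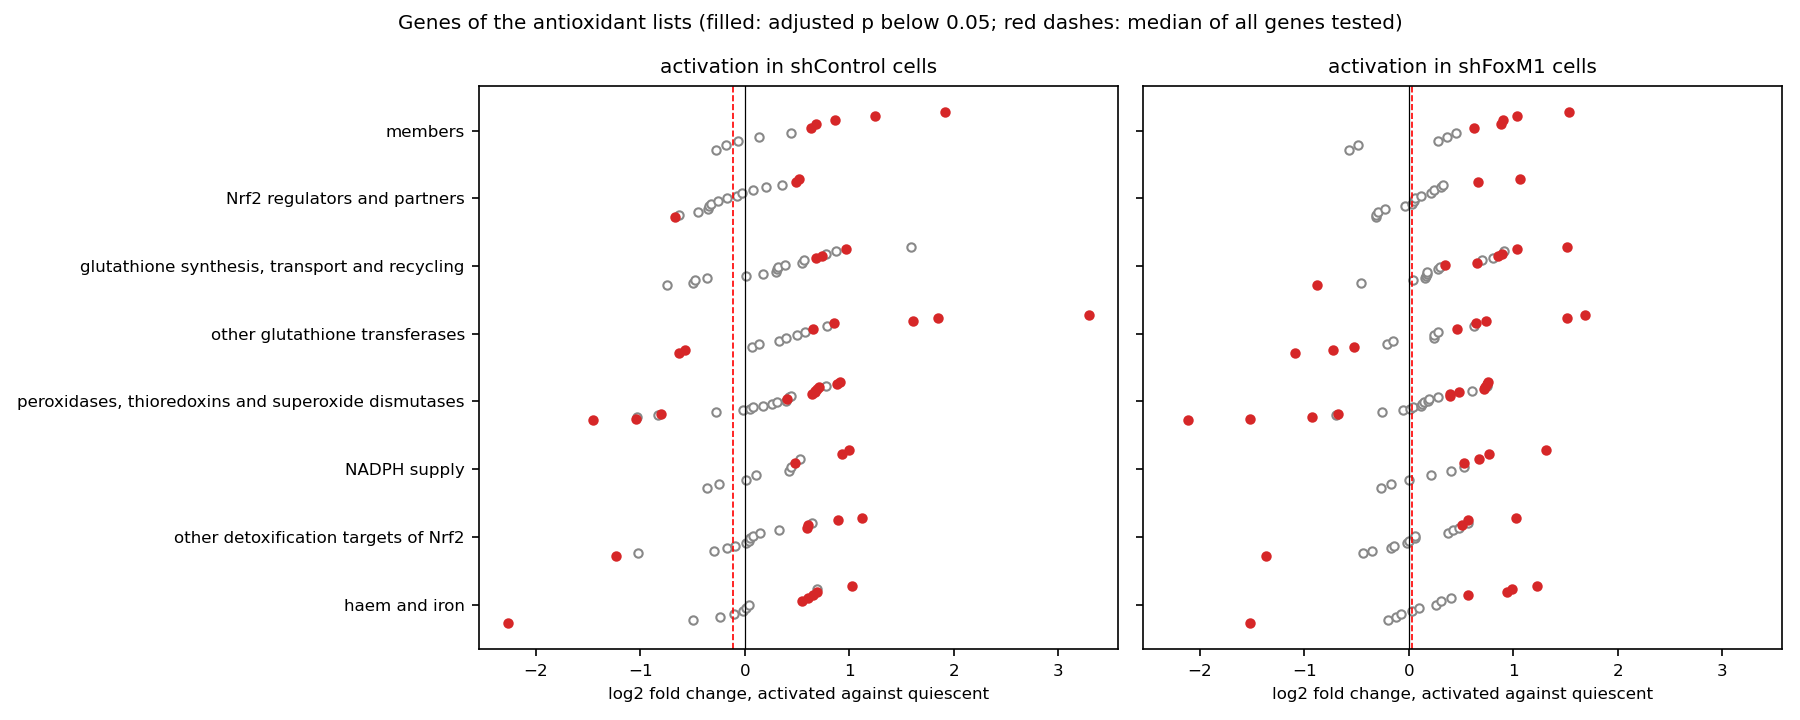
Log2 fold change on activation (horizontal axes, log2(FPKM + 1) scale) of each tested gene of the antioxidant lists in shControl (left) and shFoxM1 cells (right); filled points passed at adjusted p below 0.05 and red dashes mark the median of all genes tested. Every list has called genes on the higher side, and the 7 lists other than the members hold 30 higher and 8 lower calls in shControl cells and 31 and 10 in shFoxM1 cells.

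Of 128 further genes of the pathway, in 7 lists by role, 110 were measured well enough to be tested. On activation 30 of them rose and 8 fell in shControl cells, and 31 rose and 10 fell in shFoxM1 cells, with medians of 0.30 and 0.22 on the log2 scale beside -0.11 and 0.03 for all genes tested. The shares of all genes tested that were called, against which these counts and those of each list are to be read, are 11.7% higher and 16.5% lower in shControl cells (28.3% in all), and 18.3% higher and 12.3% lower in shFoxM1 cells (30.7% in all). None was called for the knockdown in either state or for the difference between the responses. With the protein-coding sum, the number that rose was 0 to 3 in each list in shControl cells and 1 to 3 in shFoxM1 cells. The lists too were chosen with earlier results of these data known, so their counts are not independent of that choice.

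Among 15 regulators and partners of Nrf2, 2 rose and 1 fell in shControl cells, and 2 rose in shFoxM1 cells. Keap1, the adaptor that holds Nrf2 for degradation, had log2 fold changes of 0.08 (adjusted p = 0.712) and 0.24 (adjusted p = 0.157) and lay between 15.1 and 21.7 FPKM in all libraries. Bach1, the repressor at antioxidant response elements, fell in shControl cells, from 7.84 to 9.19 FPKM in quiescent to 4.45 to 5.49 FPKM in activated libraries (log2 -0.66 ± 0.21, adjusted p = 0.0267), and did not pass in shFoxM1 cells (-0.31, adjusted p = 0.206). Rbx1, a ring finger subunit of the ubiquitin ligase that Keap1 serves, rose in shControl cells (0.49 ± 0.14, adjusted p = 0.0187). Pgam5, a mitochondrial phosphatase that binds Keap1, rose with both hairpins (0.51 and 0.66, adjusted p = 0.0247 and 0.00268). Maff, a small Maf partner, rose in shFoxM1 cells (1.06 ± 0.21, adjusted p = 0.00219). In shControl cells no gene of this list was called without quiescent shControl replicate 2 or without activated shControl replicate 2, and in shFoxM1 cells 5 were called without quiescent shFoxM1 replicate 4.

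Of 18 genes of glutathione synthesis, transport and recycling, 3 rose in shControl cells, and 6 rose and 1 fell in shFoxM1 cells. Gsr, the reductase that returns oxidised glutathione to its reduced form, lay at 16.43 to 26.21 FPKM in quiescent and 26.15 to 39.98 FPKM in activated shControl libraries (log2 0.68 ± 0.20, adjusted p = 0.0203). With shFoxM1 it lay at 20.97 to 24.22 and at 35.89 to 50.37 FPKM (0.89 ± 0.17, adjusted p = 0.00178). The mitochondrial glutaredoxin Glrx5 rose as well (0.74 and 0.85, adjusted p = 0.00578 and 0.000879), and so did Ggct, which acts in glutathione breakdown (0.97 and 1.04, adjusted p = 0.0328 and 0.0105). Slc7a11 had fold changes of 0.78 and 0.80 that did not pass (adjusted p = 0.204 and 0.134). In shControl cells 1 gene of this list was called without quiescent shControl replicate 2 or 3 or without activated shControl replicate 2, and 8 with median-of-ratios scaling. In shFoxM1 cells 4 were called without replicate 1 or 3 of either the quiescent or the activated group.

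Of 14 other glutathione transferases tested, out of 23 listed, 5 rose and 2 fell in shControl cells, and 5 rose and 3 fell in shFoxM1 cells. Gsto1, an omega class transferase, rose by 1.61 ± 0.22 and 1.51 ± 0.19 (adjusted p = 0.000281 and 0.000111), from 82.2 to 119.3 FPKM over the quiescent to 236.1 to 429.3 FPKM over the activated libraries. Gsta1, of the alpha class like Gsta4, was at 11.1, 9.64 and 3.07 FPKM in quiescent and at 71.7, 164.6 and 39.9 FPKM in activated shControl libraries. It was at 4.75, 23.7, 9.35 and 17.1 FPKM in quiescent and 69.4, 26.7, 47.3 and 29.5 FPKM in activated shFoxM1 libraries. All activated libraries lay above all quiescent ones, and within activated shControl cells Gsta1 had the same order as Nqo1, with replicate 2 highest and replicate 3 lowest. Within activated shFoxM1 cells the orders differed, and replicate 2 had the highest Nqo1, at 161.2 FPKM, but the lowest Gsta1, at 26.7 FPKM. Gsta1 rose by 3.29 ± 0.58 in shControl cells (adjusted p = 0.00142) and by 1.69 ± 0.50 in shFoxM1 cells (adjusted p = 0.0204), and how reads shared with the similar gene Gsta2 were split is uncertain. The microsomal transferase gene Mgst1 fell by 1.09 in shFoxM1 cells (adjusted p = 0.000166). In shControl cells 4 genes of this list were called without quiescent replicate 2 or activated replicate 3, and in shFoxM1 cells 3 to 5 without quiescent replicate 1, 2 or 3 or activated replicate 1, 2 or 3.

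Of 24 genes for peroxidases, thioredoxins and superoxide dismutases, 8 rose and 3 fell in shControl cells, and 7 rose and 4 fell in shFoxM1 cells. Msra, a methionine sulfoxide reductase, rose by 0.91 ± 0.16 and 0.76 ± 0.13 (adjusted p = 0.0012 and 0.0011). In shControl cells the cytosolic superoxide dismutase gene Sod1 rose by 0.71 and Txn1, the cytosolic thioredoxin that Txnrd1 reduces, by 0.88 (adjusted p = 0.00661 and 0.00668). In shFoxM1 cells Prdx6, a peroxiredoxin, rose by 0.75 and Txn2, the mitochondrial thioredoxin, by 0.73 (adjusted p = 0.00284 and 0.00357). The group means of these genes were also higher in activated cells of the other arm. With shFoxM1, Sod1 went from 357 to 491.3 FPKM and Txn1 from 201.8 to 335.7 FPKM. With the control hairpin, Prdx6 went from 67.04 to 107 FPKM and Txn2 from 95.39 to 155.3 FPKM. Sesn1, a sestrin that is also a target of p53, fell by 1.04 and 0.92 (adjusted p = 0.00464 and 0.00335). In shControl cells 4 genes of this list were called without quiescent replicate 2, and 7 without quiescent replicate 1 or without activated replicate 1 or 2.

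Of 10 genes for NADPH supply, the reducing power that Nqo1, Txnrd1 and Gsr draw on, 3 rose in shControl and 4 in shFoxM1 cells, and none fell. Taldo1, the transaldolase of the pentose phosphate pathway, rose by 0.93 and 0.67 (adjusted p = 0.000851 and 0.00182). G6pdx, which encodes glucose-6-phosphate dehydrogenase, rose by 0.48 and 0.53 (adjusted p = 0.0487 and 0.0148). Mthfd2, a mitochondrial folate enzyme, rose by 1.00 and 1.31 (adjusted p = 0.0374 and 0.00396) and was at 73.1 FPKM in activated shControl replicate 3, against 29.2 and 21.3 FPKM in replicates 1 and 2. In shControl cells 1 gene of this list was called without quiescent shControl replicate 2 or 3.

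Of 16 other detoxification genes, 4 rose and 1 fell in shControl cells, and 3 rose and 1 fell in shFoxM1 cells. Esd, an esterase that acts on a glutathione conjugate of formaldehyde, rose by 1.12 and 1.03 (adjusted p = 0.00239 and 0.00136). Nqo2, the paralogue of Nqo1 that also reduces quinones, rose by 0.89 and 0.57 (adjusted p = 0.00347 and 0.0159). Aox1, an aldehyde oxidase, fell by 1.24 and 1.36 (adjusted p = 0.00214 and 0.000401). In shControl cells 3 genes of this list were called without quiescent or without activated replicate 2, and in shFoxM1 cells 7 without quiescent replicate 4.

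Of 13 genes for haem and iron, 5 rose and 1 fell in shControl cells, and 4 rose and 1 fell in shFoxM1 cells. Ftl1, the ferritin light chain, was at 2852 to 4628 FPKM over the quiescent and 5828 to 7923 FPKM over the activated libraries, and rose by 1.02 ± 0.19 and 0.94 ± 0.16 (adjusted p = 0.00167 and 0.000943). Blvra, which reduces the biliverdin that haem oxygenase makes, rose by 0.66 in shControl cells (adjusted p = 0.0109). Slc40a1, the iron exporter ferroportin, fell from 4.77 to 11.7 FPKM over the quiescent to 0.4 to 5.6 FPKM over the activated libraries (log2 -2.26 ± 0.48 and -1.52 ± 0.42, adjusted p = 0.00398 and 0.0137). Its highest activated values, 4.4 and 5.6 FPKM, were in shControl replicate 3 and shFoxM1 replicate 4. In shControl cells 2 genes of this list were called without quiescent shControl replicate 2.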

How the data were processed

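Total RNA had been extracted with Trizol and made into libraries with the Illumina TruSeq RNA kit, per the labels' protocols. The authors deposited 1 table of FPKM values for 14 libraries, whose name gives GENCODE genes and RSEM. Tools named in the submitters' processing notes are Cufflinks 2.1.1, Bowtie 0.12.9 and HTSeq, and the build is mm10. The sources used here give neither the annotation release nor the use of strand. Depth was estimated from low values of genes with a single transcript, 91.9 to 94.3% of which lay within 0.25 of a whole read step. Counts were not used, so no counting intervals are given.

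Genes that reached 1 FPKM in 3 or more libraries were fitted as log2(FPKM + 1) with limma 3.58.1 in R 4.3.3, as 1 model of 4 group means with a trend, for 5 comparisons with Benjamini-Hochberg adjustment over 12432 genes. The test was tried on simulated data with independent noise. Such data lack the deviations that libraries share here, so the trial does not cover them. The members and lists were chosen with earlier results of these data known. Named besides the members are up to 4 called genes with the smallest p per list and comparison, Keap1, Bach1, Slc7a11, Gsr, Gsta1, the 4 genes most like Nfe2l2 and Nqo1 (1 is not reported here), and Foxm1. There were 21 alternatives: another pseudocount, no filter, 2 scalings, a replicate block, only the groups compared, each library left out, and a pair of libraries left out.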

Additional observations from a re-analysis of the deposited data

Results flagged for a closer look

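Among the 20 sets of 4 shFoxM1 libraries tested (10 genes in 2 groups), 2 held a library far from the other 3, and chance flags about 1 in 20 such sets. Gclc was at 21.8 FPKM in activated shFoxM1 replicate 3, the highest of its group, with a gap to the next library of 0.841 of the group's range. Srxn1 was at 22.5 FPKM in quiescent shFoxM1 replicate 1, the lowest of its group, with a gap of 0.867 of the range. Without the first, the rise of Gclc in shFoxM1 cells did not pass (adjusted p = 0.106). Groups of 3 libraries were not tested in this way.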

How the results depend on the processing

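Of 1040 fold changes of the 10 genes under 21 alternatives, 972 kept their direction and their side of the threshold, 27 lost the call, 9 gained it and 32 changed sign. The replicate numbers were not taken to pair the libraries, since only 8 of the 19 same-numbered pairs had deviations that correlated above 0.1 (range -0.229 to 0.381). Between quiescent and activated shFoxM1 cells the same-numbered libraries correlated at 0.381, 0.0888, 0.251 and 0.234, but quiescent replicate 2 correlated best with activated replicate 1 (0.303), so this is only a hint of pairing in that arm. With the replicate number as a block, 4 members were called in shControl cells (Txnrd1 lost, adjusted p = 0.0632) and 5 in shFoxM1 cells, and 3983 and 4167 of all genes. Under the block the knockdown values of Nqo1 in activated cells and of Gstm2 in quiescent cells turned to 0.0623 and -0.0111. With the protein-coding sum, 2 members were called in shControl cells (Nqo1 and Gsta4) and 6 in shFoxM1 cells. Those 6 include Gstm1 and Gstm2, which passed as lower. That scaling moved the median over all genes to -0.41 and -0.25, and relative to it the values in shControl cells were 1.97 for Nqo1, 1.30 for Gsta4, 0.93 for Srxn1, 0.74 for Gclm and 0.69 for Txnrd1. It turned Nfe2l2 to -0.22 on activation in shControl and -0.0317 in shFoxM1 cells, and the knockdown value of Nqo1 in activated cells to 0.0440. Median-of-ratios scaling turned Hmox1 on activation in shControl cells to 0.0894, the knockdown value of Nfe2l2 in activated cells to -0.00641, and the differences between the responses of Nfe2l2 to -0.0325 and of Srxn1 to -0.00500. The cause of these changes was not tested.

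With single libraries left out, 3 to 5 members were called in shControl and 4 to 6 in shFoxM1 cells, and none for the knockdown or the difference. The fold change on activation in shControl cells then ranged from -0.41 to 0.15 for Gstm1, from -0.89 to 0.38 for Hmox1 and from -0.0497 to 0.251 for Nfe2l2. The difference between the responses ranged from -0.0177 to 0.427 for Gclc, -0.00278 to 0.415 for Gclm, -0.0175 to 1.26 for Hmox1, -0.834 to 0.0937 for Nqo1 and -0.0147 to 0.358 for Srxn1. The knockdown value in activated cells ranged from -0.466 to 0.0945 for Gstm1 and -0.52 to 0.41 for Nqo1. In quiescent cells it ranged from -0.0086 to 0.436 for Gclc, -0.0114 to 0.299 for Gstm1, -0.18 to 0.35 for Gstm2, -0.18 to 0.12 for Nfe2l2, -0.0444 to 0.260 for Srxn1 and -0.11 to 0.32 for Txnrd1. Leaving out quiescent shControl replicate 2 gave 1896 calls over all genes on activation in shControl cells, and leaving out activated shControl replicate 2 gave 2196, against 3515. For the knockdown in quiescent cells 19 were called without quiescent shControl replicate 1, 2 without replicate 2 and 4 with no filter, and in activated cells 1 with no filter. Values near 0 FPKM rest on few reads.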
